A study of Mus musculus with 6 samples.

Results

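The Hox genes are the homeobox genes of the 4 mouse clusters Hoxa, Hoxb, Hoxc and Hoxd, which lie on chromosomes 6, 11, 15 and 2. They were taken from the array as the genes named Hox, a cluster letter and a paralog number to which at least 1 probe set is assigned alone. This gave 33 of the 39 Hox genes of the mouse RefSeq annotation, among the 18193 genes so represented, and 48 probe sets of 45037 tested. Hoxa was represented by 9 of 11 genes, Hoxb by 9 of 10, Hoxc by 7 of 9 and Hoxd by 8 of 9. Beside these, 3 probe sets were shared by neighbours, 1 by Hoxb8 and Hoxb7 and the others by Hoxd4 and Hoxd3. A gene with several probe sets is represented by the brightest, which concerned 11 of the 33 genes, and the other 22 had a single one.

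RNA of dorsal root ganglia (DRG) was hybridised to Affymetrix mouse genome arrays, with 1 array for each of 3 Meis1cko and 3 control mice at postnatal day 60. Meis1cko mice carry a Meis1 allele with loxP sites around exon 8 and a Nav1.8-Cre transgene, so that Meis1 was to be deleted in the Nav1.8 lineage, mostly nociceptors, and kept in the other neurons, glia, vessels and connective tissue of the ganglion. The labels name the other mice only as controls, and behavioural controls of the study were Meis1 F/F littermates. Each sample was total RNA of cervical, thoracic and lumbar ganglia of 1 animal, and how many ganglia of each level went into it is not given in the sources used here.

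Hox proteins are homeodomain transcription factors that give cells along the head-to-tail axis their positional identity. Within a cluster, genes with low paralog numbers are switched on early and reach far forward, and genes with high numbers come on later and stay in caudal segments. Neural crest cells and the neurons they form keep part of this code after birth. Meis and Pbx proteins are TALE homeodomain partners that bind DNA together with Hox proteins. This raises the question whether deleting Meis1 in the Nav1.8 lineage goes with altered Hox RNA in the adult ganglion.

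Short DNA words that Meis and Pbx-Hox complexes favour were looked for in Hox promoters, and 3 promoters are printed because their genes carry the points below. Hoxa2 had both words but lay under the array background, Hoxd8 was lower in every Meis1cko mouse, and Hoxd10 varied most between mice. Each run is the 250 bases before the annotated start, 5′ to 3′ in the direction of the gene, from RefSeq GRCm38.p6. The coordinates are chr6:52164832-52165081 on the minus strand for Hoxa2, chr2:74704365-74704614 on the plus strand for Hoxd8 and chr2:74691641-74691890 on the plus strand for Hoxd10. Capitals mark matches to TGACAG, the Meis core, or TGATNNAT, a Pbx-Hox word in which N is any base, on either strand.
Hoxa2: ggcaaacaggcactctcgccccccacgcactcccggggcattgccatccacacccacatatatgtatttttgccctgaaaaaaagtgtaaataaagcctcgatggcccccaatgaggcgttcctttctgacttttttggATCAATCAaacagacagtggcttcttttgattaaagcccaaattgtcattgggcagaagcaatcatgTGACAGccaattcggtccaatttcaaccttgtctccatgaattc
Hoxd8: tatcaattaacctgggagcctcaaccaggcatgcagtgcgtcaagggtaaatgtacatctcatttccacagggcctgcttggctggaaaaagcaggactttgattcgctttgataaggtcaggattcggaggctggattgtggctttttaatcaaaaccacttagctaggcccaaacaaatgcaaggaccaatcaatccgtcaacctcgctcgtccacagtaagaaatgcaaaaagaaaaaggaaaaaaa
Hoxd10: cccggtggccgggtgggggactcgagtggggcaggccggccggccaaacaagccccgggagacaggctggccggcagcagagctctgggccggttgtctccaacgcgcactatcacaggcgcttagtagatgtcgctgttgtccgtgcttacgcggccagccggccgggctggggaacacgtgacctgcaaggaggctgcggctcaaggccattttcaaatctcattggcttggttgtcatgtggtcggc
The Hoxa2 promoter held a TGACAG and, upstream of it, a match to TGATNNAT on the other strand that does not overlap it. Neither word was found in the Hoxd8 and Hoxd10 windows on either strand. Promoter entries were at hand for 19 of the 33 genes, as 21 promoters. TGACAG was in 2 of these (Hoxa2 and Hoxa3) and in 15.9% of all 32851 promoters of that length. TGATNNAT was in 3 (Hoxa2, Hoxb1 and Hoxd11) and in 7.68% of all promoters. These are matches of letters and not known binding sites. None of the 4 genes with a match was above background on all arrays.

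The arrays themselves set limits on the values. Median intensity was between 62.5 and 65.5 on all 6 arrays. Both replicate 3 arrays stood apart: the log2 ratio of the 3′ to the 5′ probe set of Actb, a measure of RNA and labelling quality, was 0.42 in control 3 and 0.44 in Meis1cko 3 against 1.23 to 1.66 on the other arrays. On replicates 1 and 2 the 3′ signal thus exceeded the 5′ signal more strongly, so the replicate 3 arrays are set apart by less 3′ excess. Some Hox values are also given without both of them, which does not mark them as the poorer arrays. All 7 measured sensory neuron markers were above background, which bears out the tissue label, and of 11 spinal cord markers only Slc17a6, which DRG neurons also express, was. The summed intensity of 6 fibroblast and meningeal markers was 20150, 9811 and 13650 in controls and 12040, 7218 and 8764 in Meis1cko mice. Their log2 fold changes had a median of -0.64, and 0 of the 6 were above 0. An unadjusted p under 0.05 was reached by 3 of them (limma, beside 2.56% of all genes), an adjusted one by 0. The part of these cells in the Hox values was not tested. The sum of 4 skeletal muscle markers was 2310, 673 and 183 against 745, 591 and 312.

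The targeted gene was checked first. Meis1 intensity was 110, 144 and 90.2 in control replicates 1, 2 and 3 and 66.0, 72.1 and 64.2 in Meis1cko replicates 1, 2 and 3. Every Meis1cko mouse lay below every control, with a log2 fold change (Meis1cko minus control) of -0.74 ± 0.18 (SE, limma, unadjusted p = 0.00434, adjusted p = 1.0). The Meis1cko values lay near the background of their arrays described below (57.3, 59.6 and 68.7), and Meis1cko 3 was under it, so the size of the fold change is uncertain. Where the probe set lies relative to the deleted exon is not given in the tables used here. In whole ganglia, fewer cells of a type and less RNA per cell cannot be told apart, for Meis1 and for every Hox gene below.

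Adult DRG carried RNA of Hox genes with paralog numbers from 1 to 10, while none of the 7 measured genes of paralogs 11, 12 and 13 stood above the array background on any array. Background was set by the 39 olfactory receptor genes on the array, a family that DRG is not known to use widely, as the 95th percentile of their intensities, which was 57.3 to 69.8 depending on the array. Above it on every array were 18 of 33 Hox genes, beside 62.3% of all genes. They made up 4 of 9 genes in Hoxa, 6 of 9 in Hoxb, 5 of 7 in Hoxc and 3 of 8 in Hoxd. By paralog number, 3 of 7 genes from 1 to 3, 9 of 12 from 4 to 8 and 6 of 14 from 9 to 13 qualified, and all 4 paralog 9 genes did.

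**Figure D1:**
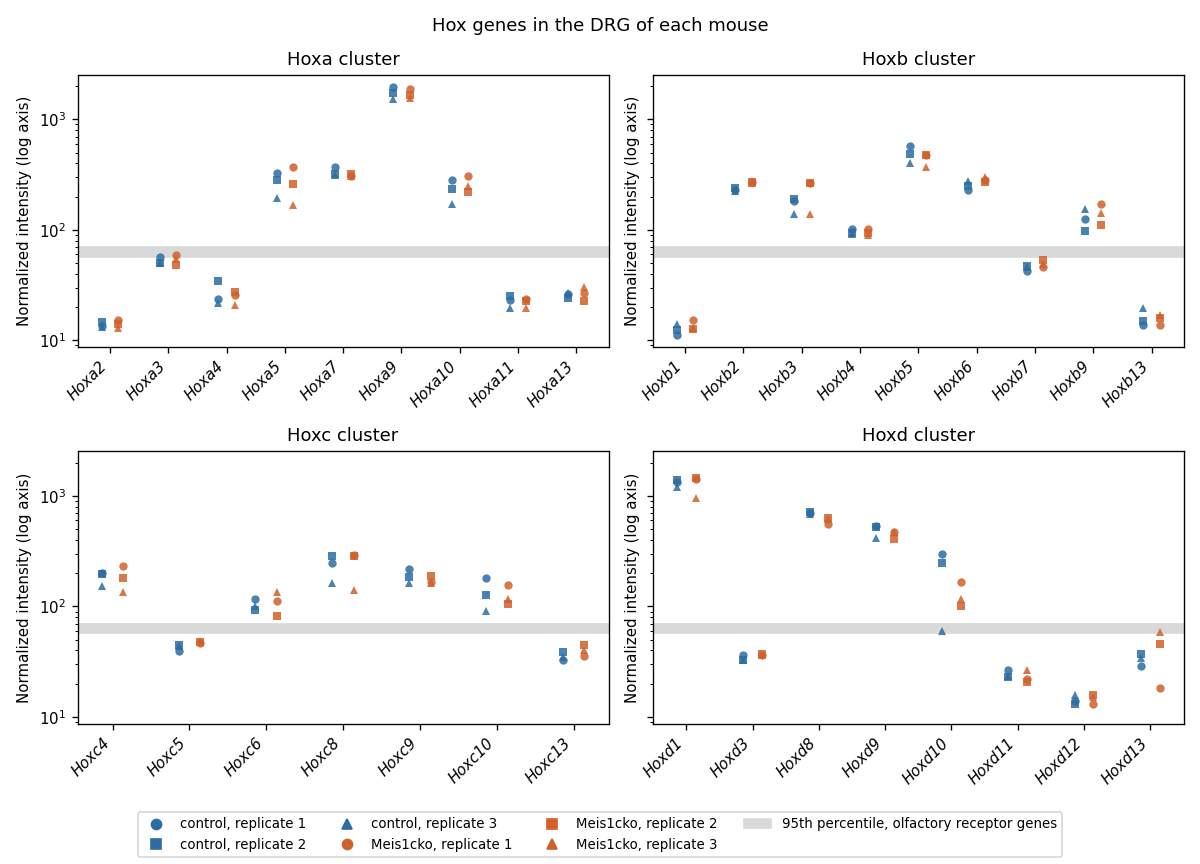
Normalized intensity (log axis) of each Hox gene in each mouse, 1 panel per cluster with genes in the order of paralog number, controls in blue and Meis1cko in orange, and the marker shape for the replicate number. The grey band spans the background of the 6 arrays, 57.3 to 69.8. Genes of paralogs 11 to 13 lie in or under the band in all clusters, and the genotypes lie side by side for most genes. Heights of different genes depend on their probes and are not to be compared.

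The genes near the limit were few. Just inside it were Hoxc6, with 82.3 to 134 over the 6 mice, Hoxb4, with 89.9 to 102.5, and Hoxc10, with 90.3 to 182. Just outside were Hoxd10, above background on 5 arrays and at 60.1 in control 3, and Hoxa3, above it on 1 array with 47.8 to 59.0. The other 13 were above background on no array. They were Hoxa2, Hoxa4, Hoxa11, Hoxa13, Hoxb1, Hoxb7, Hoxb13, Hoxc5, Hoxc13, Hoxd3, Hoxd11, Hoxd12 and Hoxd13, with single values from 11.3 in Hoxb1 to 58.6 in Hoxd13. A dim probe set does not show that the RNA is absent: Hoxb7 had 42.4 to 53.7 on its own probe set, while the probe set it shares with Hoxb8 had 187 to 310. The array has no probe set for Hoxb8 alone to separate them.

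No Hox gene differed between Meis1cko and control DRGs at an adjusted p under 0.05 (limma, Benjamini-Hochberg over 45037 probe sets, smallest adjusted p 1.0), beside 1 of 18193 genes, or 0.0055%. None of the 33 had an unadjusted p under 0.05 either (background 2.56%), and none passed the fold of 1.5 with p under 0.05 that the study used (background 0.781%). The log2 fold change was above 0 in 17 genes and below 0 in 16, beside 45.8% above 0 over all genes. The median was 0.01 over the Hox genes and -0.01 over all genes, and single genes ranged from -0.38 (Hoxd10) to 0.34 (Hoxb3). Among the 18 Hox genes above background on every array, 7 were above 0 and 11 below 0, with a median of -0.03.

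The size of a difference that these 6 arrays leave possible is given by the 95% intervals. The interval stayed within 1 on the log2 scale, a doubling or halving, for 31 of 33 genes (background 96.5%). Hoxd10 and Hoxd13 were the exceptions. It stayed within a fold of 1.5 for 25 of 33 (background 73%). Of the 18 genes above background on every array, it stayed within 1 for all 18 and within a fold of 1.5 for 12. For the dimmer genes a narrow interval describes values at background and sets no limit on the RNA.

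**Figure D2:**
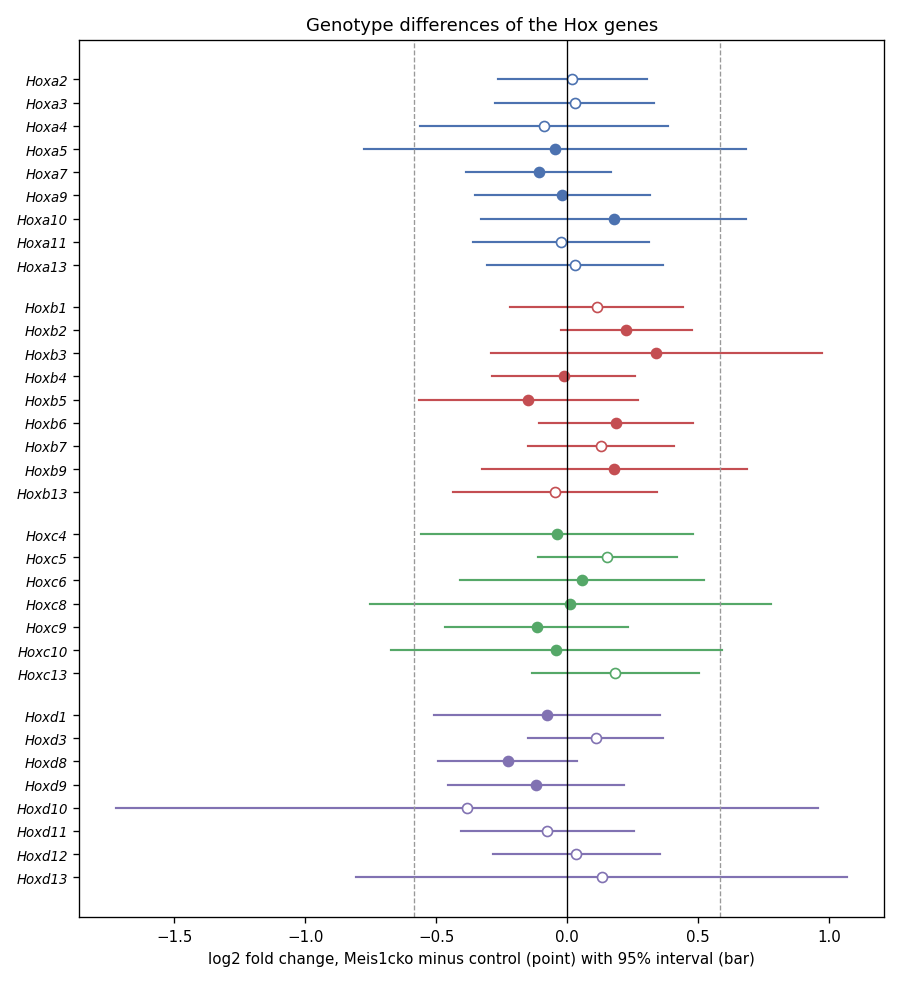
Log2 fold change of each Hox gene, Meis1cko minus control, with its 95% interval from limma (3 mice per genotype), in 1 colour per cluster. Filled points are the 18 genes above background on every array, open points the other 15, and dashed lines the fold of 1.5. Every interval crosses 0, and that of Hoxd10 is the widest.

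Clusters and paralog classes differed little in their medians. The median log2 fold change was -0.02 in Hoxa, 0.13 in Hoxb, 0.01 in Hoxc and -0.08 in Hoxd. These medians and the counts that follow include genes not above background on every array. The Hoxb median was the value of Hoxb7, which was above background on no array. In Hoxb 6 of 9 genes were above 0, and in Hoxd 5 of 8 were below 0. The median was 0.11 for paralogs 1 to 3, with 6 of 7 genes above 0, -0.03 for paralogs 4 to 8 and -0.02 for paralogs 9 to 13. That of paralogs 1 to 3 was the value of Hoxd3, also above background on no array. Groups did not overlap for 3 genes that were higher in every Meis1cko mouse (Hoxb2, Hoxc5 and Hoxd3, background 3.12%) and for 1 that was lower (Hoxd8, background 3.82%). Groups of 3 that do not overlap have, by construction, an exact two-sided permutation p of 0.1, the smallest possible, which adds nothing to these counts. Of these, Hoxb2 and Hoxd8 were above background.

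Among the anterior genes, Hoxd1 lay high on every array, between the 89.6th and 92.7th percentile. Hoxd1 is known in mice as a nociceptor gene that shapes the spinal projections of these neurons. Its intensity was 1348, 1403 and 1214 in control replicates 1, 2 and 3 and 1411, 1453 and 953 in Meis1cko replicates 1, 2 and 3. Values overlapped and both replicate 3 mice were the lowest of their group. Means were 1322 ± 97.2 (SD, n = 3) and 1272 ± 277 (SD, n = 3), a log2 fold change of -0.08 ± 0.18 (SE), which turned to 0.06 without both replicate 3 mice.

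Hoxb2, a gene of hindbrain segment identity, was higher in Meis1cko mice with little spread within a group. It measured 227, 237 and 223 in control replicates 1, 2 and 3 and 271, 269 and 265 in Meis1cko replicates 1, 2 and 3. All 3 Meis1cko values exceeded all 3 control values. Means were 229 ± 7.30 (SD, n = 3) and 268 ± 3.20 (SD, n = 3), and the log2 fold change of 0.23 had an interval from -0.02 to 0.48 and an adjusted p of 1.0 (limma, unadjusted p = 0.0682). Without both replicate 3 mice the log2 fold change was 0.22.

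Hoxb3 had the highest log2 fold change of the 33 genes and 2 probe sets that differed. This gene, Hoxa10, Hoxc10, Hoxd10 and the probe set shared by Hoxb8 and Hoxb7 were picked out after their values were seen. The brighter Hoxb3 probe set gave 183, 189 and 139 in control replicates 1, 2 and 3 and 264, 265 and 140 in Meis1cko replicates 1, 2 and 3. Replicates 1 and 2 of Meis1cko were above all controls, and Meis1cko 3 was at the level of control 3. Its log2 fold change was 0.34 ± 0.27 (SE, limma, adjusted p = 1.0) and 0.51 without both replicate 3 mice. With the replicate number as a block, its unadjusted p was 0.0356 (limma, adjusted p = 0.681), the single Hox gene under 0.05 in that fit, beside 7.11% of all genes. The dimmer probe set gave 149, 130 and 142 in controls and 127, 144 and 149 in Meis1cko mice, a log2 fold change of -0.01.

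The shared probe set of Hoxb8 and Hoxb7 showed the largest difference among the Hox probe sets whose groups did not overlap. Hoxb8 is needed for normal grooming and for the layout of the dorsal spinal cord. The probe set measured 201, 204 and 187 in control replicates 1, 2 and 3 and 310, 241 and 238 in Meis1cko replicates 1, 2 and 3. All Meis1cko values lay above all control values, with Meis1cko 1 well above the others. Its log2 fold change of 0.40 ± 0.14 (SE) did not pass (limma, unadjusted p = 0.0236, adjusted p = 1.0), nor did it with the replicate block (adjusted p = 0.504). It stayed between 0.28, without Meis1cko 1, and 0.47, without Meis1cko 3, when 1 array was left out. Hoxb7 alone had a log2 fold change of 0.13 on its own, dim probe set.

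**Figure D3:**
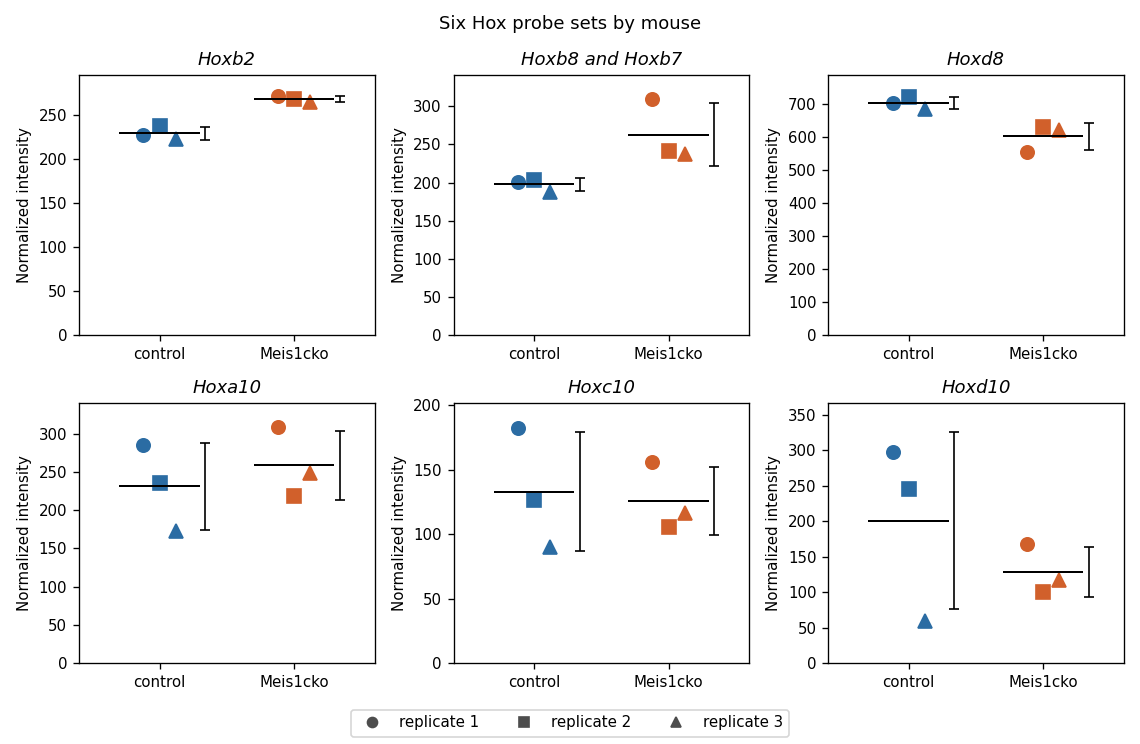
Normalized intensity (linear axis from 0) of 6 Hox probe sets in each mouse, with the marker shape for the replicate number, a line at the group mean and a bar of ± 1 SD (n = 3). In the top row the genotypes do not overlap, with Meis1cko above control for Hoxb2 and for the probe set of Hoxb8 and Hoxb7, and below it for Hoxd8. In the bottom row all 3 paralog 10 genes are highest in replicate 1 of both genotypes and lowest in control 3 and Meis1cko 2.

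Genes of paralogs 4 to 8, which mark cervical to thoracic levels, made up 9 of the 18 genes above background. Hoxd8 was the gene lower in every Meis1cko mouse, with 703, 721 and 685 in control replicates 1, 2 and 3 and 555, 630 and 621 in Meis1cko replicates 1, 2 and 3. The highest Meis1cko value, 630, was under the lowest control value, 685. Means were 703 ± 18.3 (SD, n = 3) and 602 ± 40.9 (SD, n = 3), and the log2 fold change of -0.23 had an interval from -0.49 to 0.04 and an adjusted p of 1.0 (limma, unadjusted p = 0.0843). A dimmer Hoxd8 probe set overlapped between genotypes, with 578, 605 and 393 against 529, 553 and 359, and its log2 fold change was -0.13. On that probe set both replicate 3 mice were far below the rest, which was not so on the brighter one.

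In the Hoxb cluster, Hoxb5, which acts in the neural crest that builds the gut nervous system, was the brightest member, with 579, 491 and 400 in control replicates 1, 2 and 3 and 476, 475 and 369 in Meis1cko replicates 1, 2 and 3. Its groups overlapped, with replicate 3 lowest in each, and the log2 fold change was -0.15 ± 0.18 (SE). Hoxb6 went the other way, with 228, 250 and 277 in controls and 285, 270 and 304 in Meis1cko mice. Only control 3 overlapped with the Meis1cko values, and the log2 fold change was 0.19 ± 0.13 (SE). Hoxa7 had 370, 323 and 315 in controls and 305, 319 and 308 in Meis1cko mice, a log2 fold change of -0.11 ± 0.12 (SE), in which control 1 stood above the other mice.

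Hoxc8 and Hoxc4, the brightest members of Hoxc, had almost equal group means and a wide spread. Hoxc8, a gene of brachial motor neurons and the sensory neurons that connect to them, measured 250, 284 and 164 in control replicates 1, 2 and 3 and 292, 288 and 142 in Meis1cko replicates 1, 2 and 3. In both genotypes replicate 3 was far below the others, by 0.70 in controls and by 1.03 in Meis1cko mice as log2 distance from the mean of replicates 1 and 2. The log2 fold change was 0.01 ± 0.33 (SE). Hoxc4 gave 203, 198 and 153 in controls and 233, 181 and 134 in Meis1cko mice, again with replicate 3 lowest in each group and a log2 fold change of -0.04 ± 0.22 (SE). Hoxa5, which patterns the neck, lung and phrenic motor neurons, showed the same order of replicates, with means of 269 and 267 and a log2 fold change of -0.05.

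All 4 genes of paralog 9, which mark the thoracic region, were above background, and none was separated by genotype. Hoxa9, long known as a partner of Meis1 in leukaemia, was between the 92.8th and 94.4th percentile of its array. It measured 1958, 1721 and 1527 in control replicates 1, 2 and 3 and 1890, 1680 and 1562 in Meis1cko replicates 1, 2 and 3. The groups overlapped throughout, with means of 1735 ± 216 (SD, n = 3) and 1711 ± 167 (SD, n = 3) and a log2 fold change of -0.02, with an interval from -0.35 to 0.32. Hoxd9 gave 531, 528 and 419 in controls and 473, 410 and 474 in Meis1cko mice, a log2 fold change of -0.12 ± 0.14 (SE). Hoxb9 and Hoxc9 had log2 fold changes of 0.18 and -0.12.

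The paralog 10 genes, which set lumbar identity and suppress rib formation, shared an order of mice that did not follow genotype. Hoxd10 measured 298, 245 and 60.1 in control replicates 1, 2 and 3 and 168, 100 and 118 in Meis1cko replicates 1, 2 and 3. Control 3 was the lowest of all mice and controls 1 and 2 were the highest. The SD within groups was 0.93 on the log2 scale, above that of 99.8% of the genes above background. The log2 fold change of -0.38 ± 0.57 (SE) changed with each control left out: it was -1.11 without control 3 (limma, unadjusted p = 0.0026, adjusted p = 1.0), -1.06 without both replicate 3 mice (unadjusted p = 0.00319, adjusted p = 0.664), -0.092 without control 2 and 0.05 without control 1. Without both replicate 3 mice, 4.41% of all genes had an unadjusted p under 0.05.

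Hoxa10 gave 286, 235 and 173 in control replicates 1, 2 and 3 and 308, 219 and 249 in Meis1cko replicates 1, 2 and 3, a log2 fold change of 0.18 ± 0.22 (SE). Hoxc10 gave 182, 127 and 90.3 in controls and 156, 106 and 116 in Meis1cko mice, a log2 fold change of -0.04 ± 0.27 (SE). In Hoxa10, Hoxc10 and Hoxd10 alike, control 1 was the highest and control 3 the lowest of the controls, and Meis1cko 1 the highest and Meis1cko 2 the lowest of the Meis1cko mice. That order held for 4.04% of the 11338 genes above background, a description with no test, since it was seen in these genes first. The sum of the skeletal muscle markers had the same order among the controls and another among the Meis1cko mice. Control 1 was the highest and control 3 the lowest of the controls in 40.2% of all genes above background. Of the 4 muscle markers, 1 was above background on every array, and their part in the Hox values was not tested.

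The genes of paralogs 11 to 13, which pattern the sacral and tail region, limbs and genitals, had no value above background. The dissection named in the methods does not list sacral ganglia. Hoxd13, a gene of digits and external genitals, measured 29.1, 37.4 and 34.3 in controls and 18.3, 46.0 and 58.6 in Meis1cko mice, all under the background of their array. Its log2 fold change of 0.13 had an interval from -0.81 to 1.07.

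Many Hox values were lower in replicate 3 of both genotypes, as were those of many other genes on the array. Replicate 3 lay below the mean of replicates 1 and 2 in both genotypes for 18 of 33 Hox genes, beside 48.9% of all genes. Among the 18 Hox genes above background it did so for 13, with no share over all genes above background counted for this measure. Over these 18 Hox genes the median log2 distance of replicate 3 from that mean was -0.29 in controls and -0.13 in Meis1cko mice. Over all genes above background it was -0.15 and -0.17. Replicate 3 was the lowest mouse in both genotypes for 10 of the 18 Hox genes above background, or 55.6%, beside 48.7% of all genes above background. Probe sets of 1 gene could go opposite ways: the brighter Hoxa9 probe set was lowest in replicate 3 of both genotypes, while the dimmer one gave 293, 250 and 435 in controls and 245, 263 and 457 in Meis1cko mice. Of the 11 genes with several probe sets, 5 (Hoxa4, Hoxa10, Hoxb3, Hoxc5 and Hoxc6) had log2 fold changes of both signs. All probe sets of Hoxa4 and Hoxc5 and the dimmer one of Hoxa10 were under background. None of the 48 probe sets had an unadjusted p under 0.05.

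**Figure D4:**
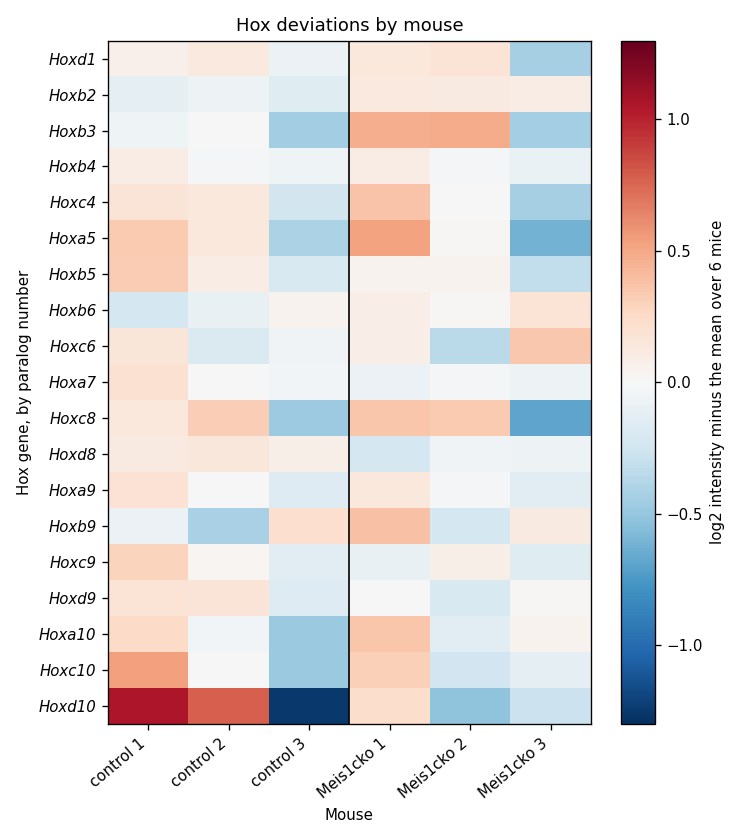
Log2 intensity minus the mean over the 6 mice (colour scale) for the 18 Hox genes above background and Hoxd10, in rows by paralog number, with controls left and Meis1cko right of the line. Blue cells gather in both replicate 3 columns, among them Hoxc8, Hoxa5 and Hoxb3, the darkest cell is Hoxd10 in control 3, and Hoxb2 and Hoxd8 change colour at the line.

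As a median over genes, no class of paralog numbers separated the genotypes. For paralogs 9 to 13, the median deviation of the 6 genes above background was 0.22, 0.01 and -0.17 in control replicates 1, 2 and 3 and 0.22, -0.17 and -0.05 in Meis1cko replicates 1, 2 and 3. For the 9 genes of paralogs 4 to 8 it was 0.16, 0.09 and -0.06 in controls and 0.09, 0.00 and -0.09 in Meis1cko mice. The genotypes overlapped in each of these classes. For the 3 genes of paralogs 1 to 3 it was -0.05, -0.01 and -0.15 in controls and 0.14, 0.18 and -0.43 in Meis1cko mice, so Meis1cko mice were both the highest and the lowest. By cluster, the medians of Hoxa, Hoxc and Hoxd overlapped between genotypes. For the 6 Hoxb genes above background it was -0.06, -0.04 and -0.11 in controls and 0.11, 0.03 and 0.00 in Meis1cko mice, so that every Meis1cko mouse lay above every control. The lowest Meis1cko median, 0.004, and the highest control median, -0.043, lay close together. The SD between mice of the median Hox deviation was 0.065. Hoxb was the only class or cluster so separated, and no share for other gene sets was counted. This is a description with no test.

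The partners of the Hox proteins gave no adjusted call. Of 11 TALE cofactors of the Meis, Pbx, Pknox and Tgif families, 10 were measured, none had an adjusted p under 0.05 and 1, Meis1, had an unadjusted p under 0.05 (limma, beside 2.56% of all genes). The nearest relative Meis2 measured 380, 557 and 405 in controls and 481, 707 and 326 in Meis1cko mice on its brightest probe set. The groups overlapped, and the log2 fold change of Meis2 was 0.12 ± 0.29 (SE). The paper's own Meis2 values, whose probe set it does not name, were slightly lower in Meis1cko mice and called normal there. The cofactors with the smallest p after Meis1 were Tgif1, Pbx4, Tgif2 and Pknox2, with log2 fold changes of 0.20, -0.12, -0.11 and -0.11. Tgif1 and Pbx4 were not above background on all arrays. Of the genes next to the clusters, 17 of 18 were measured and none had an adjusted p under 0.05 (limma). Of these, 6 had a log2 fold change above 0, their median was -0.05, and Calcoco1, beside Hoxc, was the only one with an unadjusted p under 0.05, beside 2.56% of all genes, and was not above background on all arrays (67.0 in controls and 88.9 in Meis1cko mice, log2 fold change 0.41, limma adjusted p = 1.0).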

How the data were processed

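Total RNA of whole cervical, thoracic and lumbar DRG was measured on 1-colour Affymetrix mouse arrays, 1 array per mouse (3 Meis1cko, 3 control). The labels give Trizol extraction and the paper's methods a column kit. What the authors deposited is a normalized intensity for each probe set, on a linear scale, from images read with Affymetrix software and analysed in GeneSpring. The summarising and normalising method is not given in the sources used here, so how dim probe sets were treated is unknown. The authors called genes by t-tests at p under 0.05 and a fold above 1.5.

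The log2 of each intensity was used, without an offset. The 64 control probe sets were left out, and 45037 were tested in R 4.3.3 with limma 3.58.1 (lmFit, eBayes, two-sided, no covariate, Benjamini-Hochberg over all of them, threshold 0.05), a step tested on simulated data. The array's annotation gives 1 gene for 34945 probe sets, several for 932 and none for 9160. A gene is represented by its probe set with the highest mean log2 intensity. Probes differ in affinity, so intensities of different genes were ranked only to choose which genes to describe and are not read as RNA amounts. The number of arrays, 3 per genotype, limits the precision.

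Deviations from the group means correlated between Meis1cko and control arrays of the same replicate number (r = 0.42, 0.54 and 0.77 across probe sets, which are not independent replicates). Meis1cko 1 with control 2 and Meis1cko 2 with control 1 also correlated (r = 0.34 and 0.32), while replicate 3 with any other number was negative. The correlations thus set replicate 3 apart but hardly show a pairing of replicates 1 and 2, and the labels state none. A fit with the number as a block, which takes the arrays as paired, was therefore only an alternative. Values in every mouse are given for Hox genes with an unadjusted p under 0.05 or a fold over 1.5, those above background whose groups do not overlap, the 2 brightest of each cluster, and Hoxd9 and Hoxd13. Of the other lists (cofactors, neighbours, regulators), Meis1 and up to 4 genes of the smallest p are named, with Meis2 added. The Hox genes and the lists were chosen with earlier results of these data known. Alternatives were another eBayes prior, the methods' t-test, quantile and median normalization, offsets, a filter, other choices of probe set, the block and arrays left out. Promoters came from RefSeq GRCm38.p6 and were used for sequence alone.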

Additional observations from a re-analysis of the deposited data

How the results depend on the processing

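The number of Hox genes with an adjusted p under 0.05 was 0 in the reported fit and under each of the 17 alternatives. The smallest adjusted p of a named Hox gene or of the probe set of Hoxb8 and Hoxb7 was 0.504, with the replicate block (limma). The median log2 fold change of the Hox genes stayed between -0.04 and 0.05, and the number above background was 18 or 19.

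Counts at an unadjusted p under 0.05 were 0 higher and 0 lower in the reported fit and moved to 1 higher and 1 lower with the methods' t-test, with offsets of 16 and of 50 and without both replicate 3 arrays. With the replicate block there was 1 higher (Hoxb3), and the block changed no adjusted call. Leaving out 1 array at a time gave 0 to 1 in each direction, also for the threshold with a fold over 1.5, which 1 gene, Hoxd10, passed as lower without both replicate 3 arrays or without control 3. Hoxb2 had the smallest p in the methods' t-test, 0.00129, unadjusted. Hoxd13, at background, was the gene past that threshold without Meis1cko 1, and Hoxb3 without Meis1cko 3.

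Some log2 fold changes changed sign, among them that of Hoxd10. Hoxa9 was 0.015 after quantile normalization. Hoxa10 was -0.091 on its other probe set, which lay far under background at 11.4 to 13.7. Hoxc4 was 0.0355, Hoxd1 0.058 and Hoxd13 -0.19 without both replicate 3 arrays. With 1 array left out, the values ran from -0.11 to 0.073 for Hoxa9, -0.017 to 0.35 for Hoxa10, -0.23 to 0.17 for Hoxc4, -0.22 to 0.36 for Hoxc8, -0.29 to 0.22 for Hoxc10, -0.19 to 0.12 for Hoxd1, -1.11 to 0.0495 for Hoxd10 and -0.21 to 0.63 for Hoxd13. The cause was not tested. Hoxa7, Hoxb2, Hoxb3, Hoxb5, Hoxb6, Hoxd8, Hoxd9 and the probe set of Hoxb8 and Hoxb7 kept their sign under all 17. Hoxd13 gave no value with the filter on dim probe sets.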

Other observations

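Chromatin proteins and signals that set Hox expression in the embryo were also on the array. Of 22 Polycomb and Trithorax proteins, which keep Hox genes silent or active through cell division, 20 were measured and 17 were above background. None had an adjusted p under 0.05 and 1 had an unadjusted p under 0.05 (limma, beside 2.56% of all genes). This was Cbx8, a subunit of Polycomb repressive complex 1, with 109, 127 and 110 in control replicates 1, 2 and 3 and 166, 134 and 163 in Meis1cko replicates 1, 2 and 3, a log2 fold change of 0.42 ± 0.14 (SE). The alternative subunit Cbx7 had 303, 286 and 295 in controls and 429, 376 and 306 in Meis1cko mice, a log2 fold change of 0.32 ± 0.15 (SE, unadjusted p = 0.0695, limma). In both, and in Pcgf2, which was not above background, every Meis1cko mouse was above every control, as in 3.12% of all genes. The H3K27 methyltransferases Ezh1 and Ezh2 had log2 fold changes of 0.09 and -0.16 with overlapping groups, and Ezh2 was not above background on all arrays.

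Of 14 signalling genes and receptors of the retinoic acid, Fgf, Wnt, Gdf11 and Cdx pathways, 6 were above background and none had an unadjusted p under 0.05 (limma). Aldh1a2, which makes retinoic acid and is also a gene of the meninges, was at 104, 36.2 and 36.9 in controls and 34.4, 22.2 and 33.0 in Meis1cko mice, and was above background in control 1 alone, so no fold change is given. Control 1 also had the highest sum of fibroblast and meningeal markers, and the part of these cells in the difference was not tested. None of 7 ParaHox and other cluster-related homeobox genes was above background. Of the non-coding RNAs transcribed within the Hox clusters, 3 of 17 listed were measured, and Hoxb5os was above background, with 215, 175 and 175 in controls and 167, 195 and 210 in Meis1cko mice and a log2 fold change of 0.02.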
